A study of Mus musculus with 2 samples.

Results

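DNase-seq peaks were read at 41 patterning homeobox genes outside the Hox clusters in left cerebral cortex of adult mice. The genes were chosen by name from 13 families of homeobox and paired-box transcription factors (Pax, Six2 to Six6, Irx, Gbx, En, Msx, Barhl, Lbx, Tlx, Phox, Pitx, Otx and Emx), and all 41 were found among the 21938 protein-coding genes of GENCODE M21. DNase I cuts DNA where no nucleosome covers it, so a peak marks open chromatin, and a short protected stretch inside a peak, a footprint, marks DNA that a protein may cover. The tissue came from male B6CASTF1/J mice aged 2 months, a first-generation cross of the strains C57BL/6J and CAST/EiJ, with no treatment, and was measured as biological replicates 1 and 2 of 1 group. The labels number them as separate animals under 1 donor record. Only this tissue, age, sex and genotype were measured, so genes were compared within the tissue and no test between conditions was possible.

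Homeobox genes of these families lay out the embryo: in the neural tube they divide forebrain, midbrain, hindbrain and spinal cord into territories, and elsewhere they set up eye, kidney, muscle, limb and heart. Their promoters mostly lie in long CpG islands. In cells that do not use them, such promoters are a textbook place of Polycomb repression. In the cortical lineage Pax6, Emx1, Emx2 and Otx1 act in the progenitors of the cortex, and Otx1 also in deep-layer neurons.

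The promoter of a gene was taken as the DNA within 500 bp of each of its annotated start sites of transcription (TSSs). The authors deposited a shorter and a longer peak list per replicate. A promoter was called open where the shorter list of each replicate had a peak there, closed where none of the 4 lists had one, and intermediate otherwise. A peak's height is the authors' own signal value, and no source used here gives its scaling. The tissue holds many cell types, so fewer cells with an open site and less opening per cell cannot be told apart, and a missing peak says nothing of a rare cell type.

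The sequences below show what lay under 4 of the open promoters and under the tallest distal regions, as bases of the mm10 reference GRCm38.p6, with the bases inside footprints of both replicates in capitals. Bases of annotated exons were left out, and the promoters are the tallest of those with at least 60 bases left to print, so that taller peaks in exons, such as those of Pax6 and Emx2, are not among them. The promoter peak of Six5, on the plus strand at chr7:19093921-19094220, had 5 footprint segments seen in both replicates.
Six5 promoter: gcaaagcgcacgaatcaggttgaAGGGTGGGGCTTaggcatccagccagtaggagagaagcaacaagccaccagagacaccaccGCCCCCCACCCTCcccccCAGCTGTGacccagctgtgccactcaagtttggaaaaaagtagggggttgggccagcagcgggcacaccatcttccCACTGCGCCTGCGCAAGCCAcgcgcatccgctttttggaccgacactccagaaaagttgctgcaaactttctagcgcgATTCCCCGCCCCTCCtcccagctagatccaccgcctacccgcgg
The promoter peaks of Emx1 (chr6:85187322-85187437, plus strand), Msx1 (chr5:37824584-37824740, minus strand) and Six4 (chr12:73113457-73113549, minus strand) are shown up to the first exon. Emx1 had no footprint shared by the replicates, so its line has no capitals.
Emx1 promoter: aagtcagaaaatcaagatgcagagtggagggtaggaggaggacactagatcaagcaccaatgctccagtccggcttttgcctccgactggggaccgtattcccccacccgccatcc
Msx1 promoter: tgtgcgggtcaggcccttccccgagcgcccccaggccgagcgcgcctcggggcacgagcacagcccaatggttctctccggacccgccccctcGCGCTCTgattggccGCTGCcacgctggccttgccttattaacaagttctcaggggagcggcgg
Six4 promoter: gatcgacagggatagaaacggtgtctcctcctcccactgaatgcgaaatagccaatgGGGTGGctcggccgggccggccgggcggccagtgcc
The 3 tallest distal regions, over 2000 bp from every TSS, lay at Gbx1 (minus strand, chr5:24530101-24530340 and chr5:24486161-24486380) and at Six3 (plus strand, chr17:85633761-85633920).
Gbx1 distal region upstream: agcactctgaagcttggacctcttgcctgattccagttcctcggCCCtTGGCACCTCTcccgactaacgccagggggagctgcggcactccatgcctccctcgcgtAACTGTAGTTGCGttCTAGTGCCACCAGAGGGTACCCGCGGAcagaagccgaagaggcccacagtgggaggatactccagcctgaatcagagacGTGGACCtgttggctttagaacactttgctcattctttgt
Gbx1 distal region in Agap3: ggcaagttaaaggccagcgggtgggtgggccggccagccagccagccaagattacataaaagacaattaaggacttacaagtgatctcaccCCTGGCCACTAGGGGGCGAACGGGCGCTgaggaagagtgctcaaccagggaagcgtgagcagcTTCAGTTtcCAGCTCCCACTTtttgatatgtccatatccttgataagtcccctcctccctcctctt
Six3 distal region: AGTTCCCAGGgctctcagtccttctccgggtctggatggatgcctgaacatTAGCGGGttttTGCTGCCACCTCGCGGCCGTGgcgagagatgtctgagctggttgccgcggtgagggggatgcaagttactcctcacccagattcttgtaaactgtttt

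Of the 41 genes, 8 had an open promoter (19.5%), where 56.2% of all protein-coding genes did. These were Pax5, Pax6, Six4, Six5, Msx1, Msx2, Emx1 and Emx2. A further 18 genes were closed (43.9%, against 33.2% of all genes), and 15 were intermediate (36.6%, against 10.7% of all genes). No test was made of these shares, since genes of a list are not replicates of a condition. A peak at any annotated TSS could make a gene open, and the median TSS number was 2 in the 41 genes and 3 in all genes. The classes ran partly along families: Emx was open at both genes and Msx at 2 of 3, while Irx had 5 intermediate genes and 1 closed gene of 6. Pax had 2 open, 1 intermediate and 6 closed genes of 9, and both Barhl and both Lbx genes were closed.

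**Figure D1:**
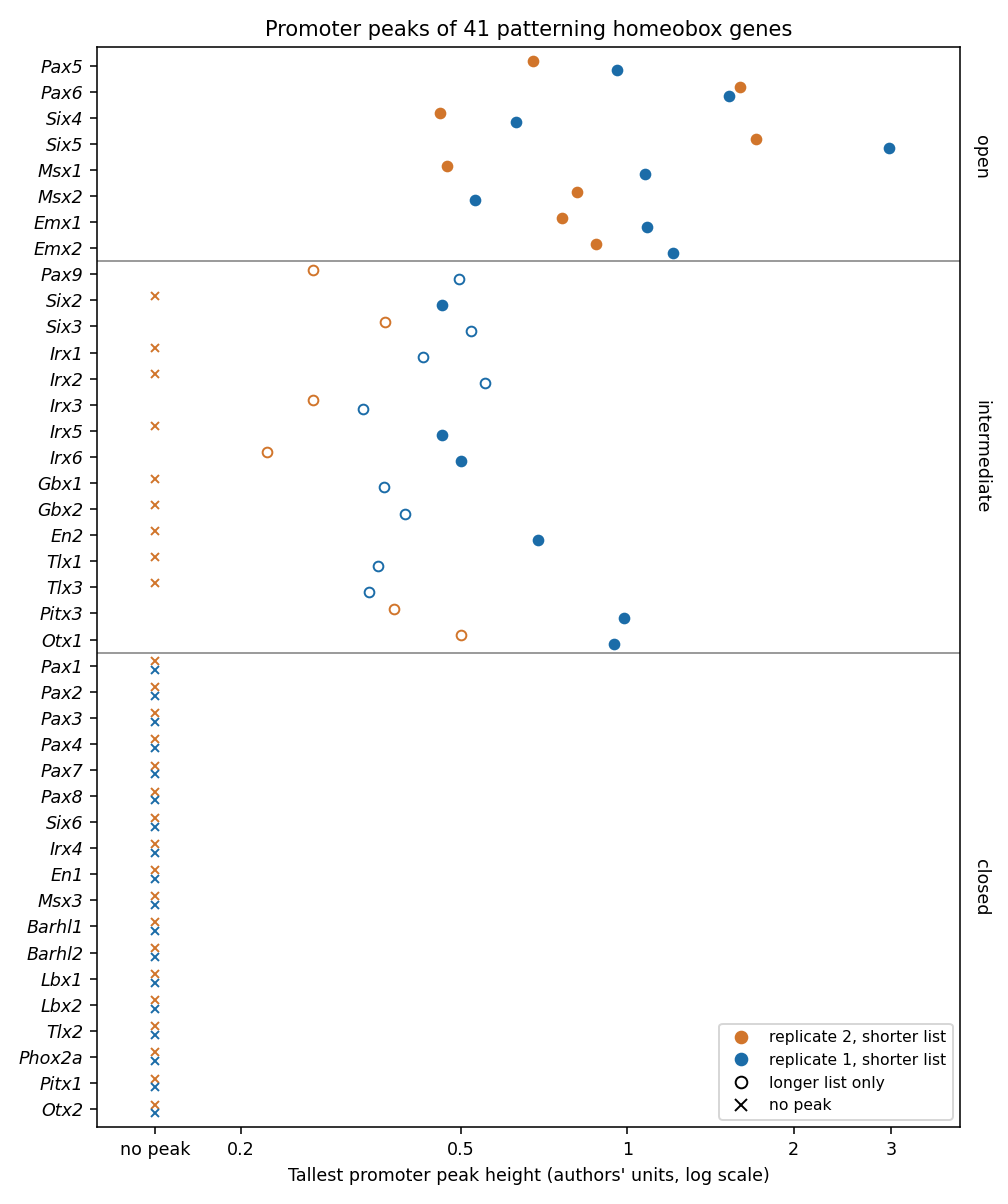
Height of the tallest promoter peak (authors' units, log scale) for each of the 41 genes, with replicate 2 in orange and replicate 1 in blue; filled points are peaks of the shorter list, hollow points peaks of the longer list alone, and crosses mark no peak. The 8 open genes reach from 0.459 (Six4, replicate 2) to 2.97 (Six5, replicate 1), and every point of the 18 closed genes is a cross.

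The open promoters carried low peaks. The median height over the 8 open genes, as the geometric mean of the replicates, was 0.858, whereas it was 2.80 over all 12324 genes with an open promoter and 3.14 over the 10117 of them with a CpG-rich promoter. Low peaks were not particular to the 41 genes. Of the lists described below, the 3 open genes among other patterning homeobox genes had 0.900 and the 2 open Hox genes 0.905. The 19 open forkhead genes had 1.92. Even Six5, the tallest, stood above only 39.5% of open promoters, and Six4, the lowest, above 1.85%. The median log2 ratio of replicate 2 over replicate 1 was -0.48 at the 8 open genes and -0.77 at all open promoters, so a lower value in replicate 2 is shared by most genes and is not read as a change.

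The Emx genes specify the dorsal telencephalon and pattern the cortex into areas. Emx2 had a promoter height of 0.878 in replicate 2 and 1.21 in replicate 1. Emx1 had 0.763 in replicate 2 and 1.09 in replicate 1. Each was higher in replicate 1, with log2 ratios of -0.46 and -0.51, and each stood low among open promoters, above 12.1% of them for Emx2 and 9.36% for Emx1. The Emx2 peak began 89 bp inside the gene and covered a TSS of the antisense gene Emx2os, to which it was thus closer than to that of Emx2. DNase-seq does not tell which of these genes a peak belongs to. Replicate 1 had 3 peaks at the Emx2 promoters and replicate 2 had 1.

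Pax6, which drives eye formation and the cortical radial glia, had the most similar raw heights between the replicates among the 8 open genes. Its height was 1.60 in replicate 2 and 1.53 in replicate 1 (log2 ratio 0.07), above 24.5% of open promoters. Similar raw heights are not read as an even signal, since the median log2 ratio at all open promoters was -0.77. The peak covered an internal TSS 6533 bp from the 5′ end of the gene and lay in an exon, and the 5′ end itself had no peak in any list. Pax5, the B-cell factor that also acts at the midbrain-hindbrain boundary, had 0.675 in replicate 2 and 0.958 in replicate 1. Its peak too lay off the 5′ end, in an exon 415 to 455 bp from an internal TSS that starts 6481 bp into the gene. At the 5′ end of Pax5 only the longer list of replicate 1 had a peak, of 0.229. With the 5′ end of each gene as the only promoter, an alternative chosen after the data were seen, Pax5 and Pax6 were no longer open and 6 genes remained. The share of all genes open under this setting is not given, so the 6 has no background beside it.

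Six4 and Six5 belong to the family of sine oculis homeobox factors in eye, muscle and kidney that work with Eya proteins. Six5, next to the myotonic dystrophy kinase gene Dmpk, had 1.71 in replicate 2 and 2.97 in replicate 1. This peak, the first sequence above, lay 354 bp upstream of the TSS between Dmpk and Six5. Six4 had 0.459 in replicate 2 and 0.630 in replicate 1, at its TSS. By the geometric mean of the replicates Six5 was the highest and Six4 the lowest of the open genes, though in replicate 1 Msx2 was lower than Six4.

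Msx1 and Msx2, targets of BMP signalling in face, tooth, skull and limb, went opposite ways between the replicates. Msx1 had 0.473 in replicate 2 and 1.08 in replicate 1 (log2 ratio -1.19). Msx2 had 0.810 in replicate 2 and 0.531 in replicate 1 (log2 ratio 0.61). The Msx1 peak lay on its TSS, and the Msx2 peak began 34 to 140 bp inside the gene from its only annotated TSS. The third gene, Msx3 of the dorsal neural tube, was closed.

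The intermediate genes rested mainly on replicate 1. In the shorter lists, 8 of the 41 genes had a promoter peak in replicate 2 and 14 in replicate 1, so that 0 genes had one in replicate 2 alone and 6 in replicate 1 alone. Over all genes, 0.934% had a peak in replicate 2 alone and 5.37% in replicate 1 alone, and over CpG-rich genes these shares were 0.130% and 6.18%. These 6 genes were Pitx3 (0.989), Otx1 (0.945), En2 (0.691), Irx6 (0.501), Six2 (0.462) and Irx5 (0.462), with the replicate 1 height in parentheses. In the shorter lists replicate 1 also had promoter peaks at more marker genes of neurons, oligodendrocytes, striatum and thalamus, which is given with the markers below. In the longer lists both replicates had peaks at most of the neuron markers.

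Otx1, of the forebrain and of deep-layer cortical neurons, had 2 longer-list peaks of 0.493 and 0.4997 in replicate 2 and a tallest peak of 0.945 in replicate 1. Both replicate 2 peaks were taller than the shorter-list peaks of the open genes Six4 (0.459) and Msx1 (0.473) in that replicate. The classes thus follow the authors' lists and not height alone. Its promoters held 3 footprints in replicate 2 and 10 in replicate 1, and 3 of them overlapped, although the gene was not open by the shorter lists. Six2, which keeps nephron progenitors undifferentiated, had no peak of any list at its promoter in replicate 2. Pitx3, which midbrain dopamine neurons and the lens depend on, had 0.378 in the longer list of replicate 2 and 0.989 in replicate 1. En2, a gene of the midbrain and cerebellum, had no peak of any list within 20 kb in replicate 2, whereas in replicate 1 its locus held 5 shorter-list peaks and 10 longer-list peaks. Its FDR track ran the same way, with 0 promoter bases under 0.05 in replicate 2 and 647 in replicate 1, where the lowest FDR was 3.53e-09.

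Low peaks of the longer lists made up the rest of the intermediate class. Both replicates had one at Six3, the repressor of the anterior forebrain and eye (0.365 in replicate 2 and 0.522 in replicate 1), and at Pax9 of sclerotome and teeth (0.270 in replicate 2 and 0.496 in replicate 1). At Six3 the peak also lay within 500 bp of a TSS of the antisense gene Gm28528. Irx6 (0.223 in replicate 2 and 0.501 in replicate 1) and Irx3 (0.270 in replicate 2 and 0.332 in replicate 1) had them too, at Irx3 in different places. Iroquois genes set neural prepatterns and are also active in heart and limb. Replicate 1 alone had a longer-list peak, and neither replicate a shorter-list one, at Irx2 (0.553), Irx1 (0.427), Gbx2 of anterior hindbrain and thalamus (0.397), Gbx1 (0.363), Tlx1 of the spleen (0.354) and Tlx3 of spinal sensory neurons (0.341). With the longer lists in place of the shorter ones, 14 genes were open (34.1%), where 61.0% of all genes were.

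The 18 closed genes were Pax1 of the sclerotome, Pax2 of kidney and midbrain, Pax3 and Pax7 of neural crest and muscle, Pax4 of the endocrine pancreas, Pax8 of the thyroid, Six6 of eye and hypothalamus, Irx4 of the heart ventricle, En1 of the midbrain-hindbrain boundary, Msx3, Barhl1 and Barhl2 of hair cells, cerebellum and retina, Lbx1 of spinal interneurons and muscle precursors, Lbx2, Tlx2 of enteric neurons, Phox2a of noradrenergic neurons, Pitx1 of hindlimb and pituitary, and Otx2 of forebrain and choroid plexus. No footprint of either replicate lay at any of their promoters. Promoter bases with an FDR under 0.05 were found at Otx2 (13 bp) and Pitx1 (2 bp), in replicate 1 only, and none had an FDR under 0.001. Family members thus parted: Otx1 was intermediate and Otx2 closed, En2 intermediate and En1 closed, and Pitx3 intermediate and Pitx1 closed.

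**Figure D2:**
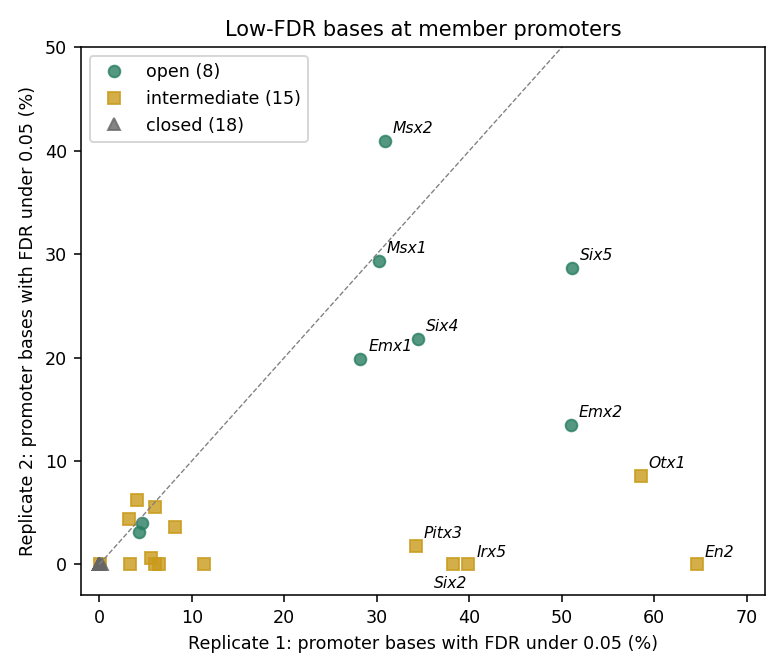
Share of promoter bases (%) with a deposited FDR under 0.05 in replicate 1 (x axis) and replicate 2 (y axis) for the 41 genes, by class; the dashed line marks equal shares. En2, Otx1, Pitx3, Six2 and Irx5 lie far right and low in replicate 2, Msx2 lies above the line, and the 18 closed genes sit at or next to 0 in both.

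Each of the 8 open genes, and none of the others, had promoter bases with an FDR under 0.001 in both replicates, where 57.1% of all genes did. Peaks and FDR values come from the same libraries and are not independent. The median share of promoter bases with an FDR under 0.05 at the open genes was 20.8% in replicate 2 and 30.6% in replicate 1, whereas at all open promoters it was 31.2% in replicate 2 and 36.7% in replicate 1. At Emx2 it covered 404 bp in replicate 2 and 1532 bp in replicate 1, at Msx2 410 bp in replicate 2 and 309 bp in replicate 1, and at Pax6 478 bp in replicate 2 and 559 bp in replicate 1. Footprints that overlapped between the replicates lay at the promoters of 7 genes (17.1%, against 54.8% of all genes), namely Pax6, Six4, Six5, Msx1, Msx2, Otx1 and Emx2. Pax5 and Emx1 had footprints in each replicate within the promoter that did not overlap. The whole Pax5 peak, which reaches beyond the 500 bp, held 4 footprints in each replicate and 2 segments covered in both. The promoters of Emx2 held 2 footprints in replicate 2 and 9 in replicate 1.

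**Figure D3:**
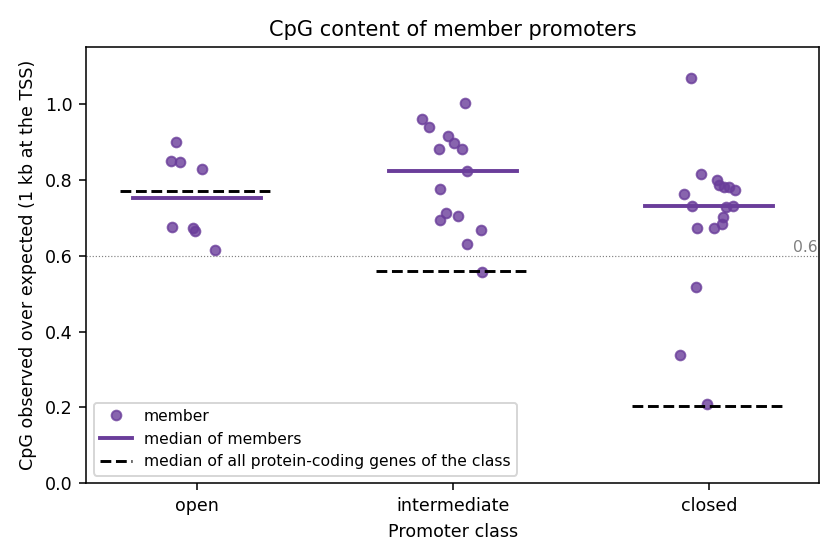
Highest CpG observed over expected in the 1 kb around any TSS of each of the 41 genes, by class, as points. Lines give the median of the genes (purple) and the median of all protein-coding genes of that class (dashed black). The closed genes have a median of 0.731, far above the 0.203 of all closed genes, while the open genes, at 0.752, lie near the 0.771 of all open genes.

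The CpG content of open and closed genes overlapped. The observed-over-expected CpG ratio was taken over the 1 kb around each TSS of a gene, and the highest was kept. A gene with more TSSs thus had more values to take the highest from. The median TSS number was 2 in each class of the 41 genes, and 5, 3 and 2 in all open, intermediate and closed genes. The ratio had a median of 0.752 in the open genes (range 0.616 to 0.901), 0.825 in the intermediate genes (0.559 to 1.00) and 0.731 in the closed genes (0.210 to 1.07). Across all protein-coding genes the medians were 0.771 for open, 0.559 for intermediate and 0.203 for closed promoters. A ratio of at least 0.6 was counted as CpG-rich, which 37 of the 41 genes reached (90.2%, against 52.5% of all genes), the others being Pitx3, Lbx2, Pax8 and Pax4. Of the 37 CpG-rich genes 8 were open (21.6%), where 87.8% of all CpG-rich genes were and 8.93% were intermediate. All CpG-rich genes had a median of 5 TSSs, each of which could make a gene open. Only 381 CpG-rich genes of the genome were closed (3.30%), and 15 of them belonged to this set. Barhl2, a closed gene, had the highest ratio of the 41, 1.07. The CpG-rich span within 5 kb of the 5′ end had a median of 1850 bp in the open and 1700 bp in the closed genes, against 800 bp in all open and 0 bp in all closed genes. Among the 1544 genes with a span of at least 1600 bp, the lower quartile of the 41 genes, 74.7% were open and 10.6% closed. Lists described below also had long CpG-rich spans, with differing shares of closed promoters. Hox genes were 74.4% CpG-rich with a median span of 1600 bp, and 84.6% were closed. Other patterning homeobox genes were 82.9% CpG-rich with a median span of 2100 bp, and 54.3% were closed. Homeobox genes of cortical cells were 95.2% CpG-rich with a median span of 1900 bp, and none was closed.

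**Figure D4:**
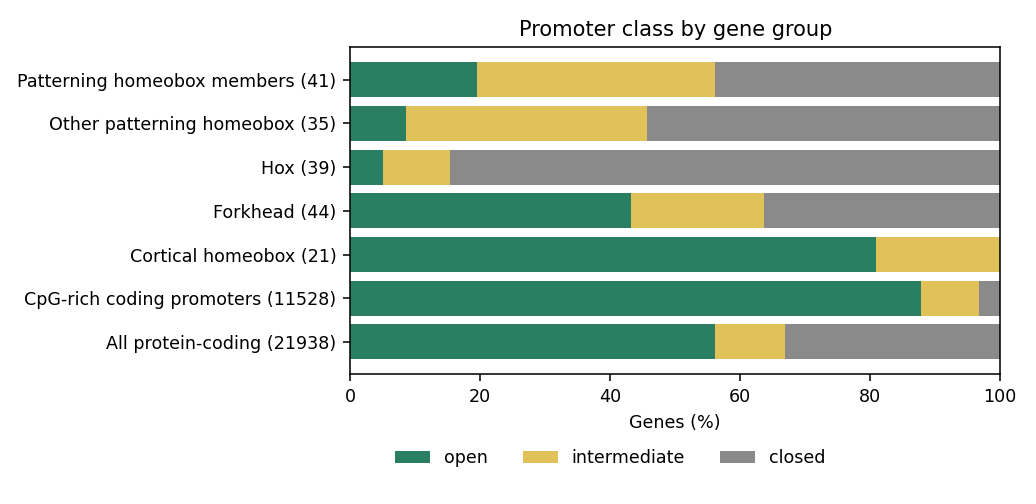
Share of genes (%) with an open, intermediate or closed promoter, for the 41 patterning homeobox genes and, under them, other gene lists, CpG-rich genes and all protein-coding genes, with the number of genes in parentheses. The 41 genes have 19.5% open promoters, between 5.13% for Hox genes and 81.0% for the homeobox genes of cortical cells.

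Other homeobox genes bracketed the set. Of 35 other patterning homeobox genes, such as the Nkx and Lhx genes, 3 were open (8.57%) and 19 closed, and of the 39 Hox genes 2 were open (5.13%) and 33 closed. By contrast, 17 of 21 homeobox genes that mature cortical neurons and glia use were open (81.0%) and none was closed. This stands beside 87.8% open among all CpG-rich genes. The median height of those 17 open genes was 1.67, and Pou3f3, a POU factor of upper-layer cortical neurons, had 4.56 in replicate 2 and 5.47 in replicate 1. The forkhead genes, another family of developmental factors, had 19 of 44 open (43.2%). Among 9 partners of the sine oculis factors, in the Eya, Dach and Sall families and Sobp, 6 were open and none closed. The tallest of those was Eya3 (2.50 in replicate 2 and 4.75 in replicate 1), a phosphatase and coactivator, and the others were Sobp, Sall1, Eya1, Dach1 and Dach2. The lists differed in TSS number, and a gene with more TSSs had more places to count as open. The median was 6 in the cortical list and 6 in the partner list, against 2 in the 41 genes. It was 2 in the other patterning list, 2 in the Hox genes and 1 in the forkhead genes. The lists were drawn up with earlier results of these data known, and no difference between them was tested.

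The loci, taken as the gene body and 20 kb to either side, held 46 distinct regions with overlapping peaks in both replicates. Of these, 8 were the promoters of the open genes, 15 were promoters of neighbouring genes, 4 lay near a TSS and 19 were distal. In 9 loci (22.0%, against 15.5% of all genes) neither shorter list had a peak: Pax3, Pax9, Six6, Irx1, Irx2, Irx4, Barhl2, Pitx1 and Otx2. The tallest shared region of a locus was the gene's own promoter for 5 of the 41 genes, where it was for 36.6% of all genes, a neighbour's promoter for 9 (23.6% of all genes) and a distal region for 11 (14.2% of all genes).

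Several closed and intermediate genes lay beside neighbours with tall promoter peaks. Lbx2 and Tlx2, whose loci overlap on chromosome 6, share the promoter of Pcgf1, a subunit gene of Polycomb repressive complexes, which had a height of 4.69 in replicate 2 and 8.22 in replicate 1. The Htra2 and Aup1 promoter in the Tlx2 locus had 4.94 in replicate 2 and 7.27 in replicate 1. Arf5, in the Pax4 locus, had 2.11 in replicate 2 and 5.47 in replicate 1. Pitx3 lay 3.875 kb from the promoter peak of Gbf1, which had 6.29 in replicate 2 and 5.10 in replicate 1. The closest case was Irx5: the promoter of the long non-coding RNA gene Crnde, 1.305 kb from the nearest Irx5 TSS, had 2.44 in replicate 2 and 3.76 in replicate 1, while the Irx5 promoter had no peak in replicate 2 and one of 0.462 in replicate 1. Widening the promoter to 2000 bp made Irx5 and Pitx3 open, since the Crnde region then fell inside the Irx5 window and a region 1729 bp from a Pitx3 TSS, with 1.51 in replicate 2 and 3.37 in replicate 1, inside that of Pitx3.

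**Figure D5:**
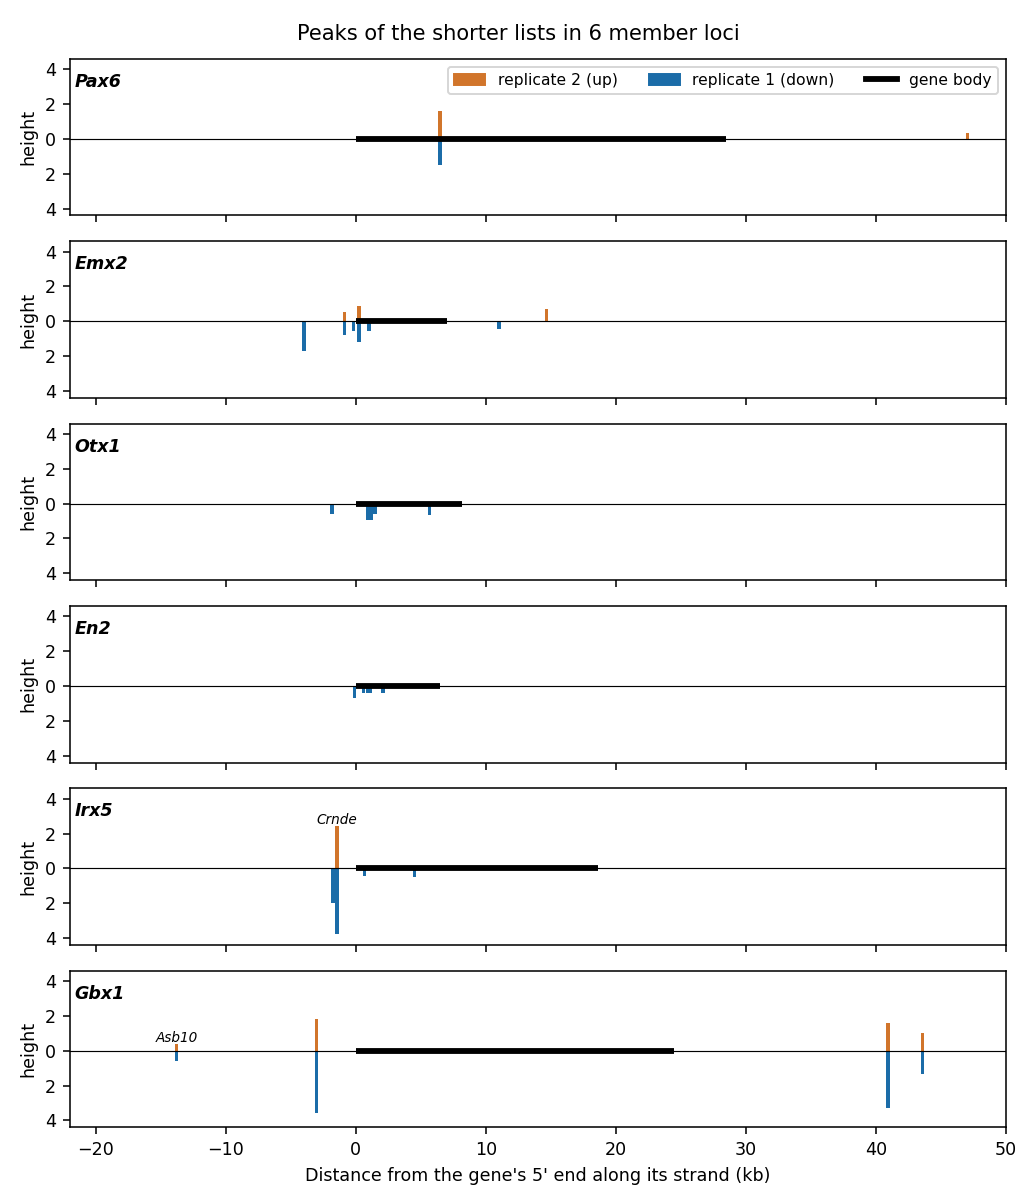
Heights of shorter-list peaks (authors' units) in 6 loci by distance from the gene's 5′ end along its strand (kb), with replicate 2 upward in orange, replicate 1 downward in blue, the gene body as a thick line and names where a shared peak is the promoter of another gene. En2 and Otx1 have peaks in replicate 1 alone, Irx5 has its tall peaks at Crnde, and Gbx1 has distal peaks in both replicates with none at its own 5′ end.

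Distal regions seen in both replicates lay in the loci of 12 genes (29.3%, against 46.7% of all genes). Per megabase of locus this was 7.62 regions for the 41 genes and 11.2 for all genes. Pax5 had 4, all in its introns, Gbx1 had 3, Six2 and Lbx1 had 2 each, and Pax1, Pax7, Pax8, Six3, Gbx2, En1, Msx3 and Barhl1 had 1 each. Of these 12 genes 1 was open, 4 were intermediate and 7 were closed. That 11 of 12 were not open stands beside 33 of the 41 genes in the whole set, and beside 33.1% of the 10246 protein-coding genes with such a region. Of the 19 regions 10 were intergenic (49.0% of all 23895 shared distal regions), 7 intronic (46.2% of all) and 2 exonic (4.73% of all). A footprint of both replicates lay in 16 of the 19, and in 81.2% of all. Their median height was 0.930, and that of all shared distal regions was 0.856.

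Gbx1, a spinal cord and forebrain factor, had the tallest of them. The upstream region 2.90 kb from its TSS had 1.80 in replicate 2 and 3.56 in replicate 1, and a region in an intron of the neighbour Agap3 had 1.61 in replicate 2 and 3.29 in replicate 1. The region downstream of Six3, 12.7 kb from its nearest TSS, had 0.804 in replicate 2 and 1.84 in replicate 1. The tallest Pax5 region, 80.9 kb from its nearest own TSS, had 0.837 in replicate 2 and 1.62 in replicate 1. Among closed genes, Lbx1 had regions of 0.790 in replicate 2 and 1.40 in replicate 1, and of 0.709 in replicate 2 and 1.37 in replicate 1. En1 had one 15.7 kb from its TSS with 0.790 in replicate 2 and 1.05 in replicate 1. Which gene such a region acts on was not measured.

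The printed sequences were searched on both strands for words chosen after they were seen. CCACNAG, a word within the motif of the insulator protein CTCF, lay wholly inside capitals in the upstream Gbx1 region and in the Agap3 region, and outside capitals in the Six5 promoter. It was present in the 300 bp around the centre of 7 of the 19 distal regions, where 28.2% of all 23895 shared distal regions and 15.4% of promoters of that length held it. The 7 include both of those Gbx1 regions, which were seen before the word was chosen. Their count is thus not a like measure beside the share of all regions. TGCGCA, a word within the NRF1 motif, lay wholly inside capitals of the Six5 promoter. It was held by 9.69% of promoters, 3.48% of all distal regions and 0 of the 19. Each word is a short part of a motif. A region without it, such as the Six3 region for CCACNAG, may still hold a stretch like the motif. A word is only letters, and no binding was measured. Over the 1 kb around the 5′ end, the homeodomain word TAATTA was found at 5 of the 41 genes (15.02% of all and 9.46% of CpG-rich genes), the SP/KLF word GGGCGG at 36 (60.4% of all and 86.6% of CpG-rich genes), the E-box CAGCTG at 16 (41.7% of all genes) and the E-box CATATG at 0 (11.7% of all and 5.92% of CpG-rich genes). CCAAT was at 30 (70.7% of all genes) and TGACGT at 7 (16.1% of all genes).

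Marker promoters were read to check the tissue label. Of 6 markers each, peaks of the shorter lists lay at 2 in replicate 2 and 6 in replicate 1 for cortical excitatory neurons, at 1 in replicate 2 and 4 in replicate 1 for inhibitory neurons, at 5 in each for astrocytes, and at 4 in replicate 2 and 5 in replicate 1 for oligodendrocytes. Their summed heights were 3.95 in replicate 2 and 8.75 in replicate 1 for excitatory neurons, 0.581 in replicate 2 and 4.57 in replicate 1 for inhibitory neurons, 3.75 in replicate 2 and 4.52 in replicate 1 for astrocytes, and 2.97 in replicate 2 and 6.02 in replicate 1 for oligodendrocytes. A marker without a shorter-list peak added 0 to its sum. Heights at all open promoters were also lower in replicate 2, with a median log2 ratio of -0.77. That ratio covers only genes open in both replicates, so it is not a like measure for these sums. In the longer lists both replicates had a peak at 5 of 6 excitatory, 4 of 6 inhibitory, 6 of 6 astrocyte and 5 of 6 oligodendrocyte markers. All 4 sums were lower in replicate 2, and the shorter list of replicate 2 lacked the promoter peaks of En2, Otx1, Pitx3, Six2, Irx5 and Irx6, and the part of cell types in those peaks was not tested. Striatal markers had peaks at 4 of 6 in replicate 2 and 5 of 6 in replicate 1. Thalamic markers had them at 4 of 6 in replicate 2 and 6 of 6 in replicate 1. The summed heights of the striatal markers, 6.54 in replicate 2 and 12.7 in replicate 1, were the largest of all marker lists. Those of the thalamic markers were 2.98 in replicate 2 and 7.13 in replicate 1. Both lists hold genes that cortex also uses. Choroid plexus markers, a tissue of Otx2, had 0 in replicate 2 and 1 in replicate 1, which was Kl (0.410). Clic6 had a longer-list peak in replicate 1 alone (0.471), and Ttr, Folr1, Kcnj13 and Aqp1 were absent from all 4 lists. Hypothalamic markers had 0 in replicate 2 and 1 in replicate 1, which was Agrp (1.11). Midbrain and hindbrain markers, beside En2 and Pitx3, had 1 of 6 in each. This was Tph2 (0.479 in replicate 2 and 0.630 in replicate 1). Slc6a3 and Atoh1 had longer-list peaks in replicate 1 alone, and Th, Fev and Slc6a4 were absent from all lists. The part of those tissues in the En2 and Pitx3 peaks was not tested. Microglial markers had 1 of 6 in each, and endothelial markers 1 in replicate 2 and 2 in replicate 1. Meningeal markers, beside which Msx1 and Msx2 are set as genes known from mesenchyme, had 2 of 6 in each. These were Col1a1 (1.37 in replicate 2 and 2.09 in replicate 1) and Foxc1 (0.851 in replicate 2 and 1.20 in replicate 1). Dcn had a longer-list peak in both, and Col1a2, Col3a1 and Lum were absent from all lists. The part of meninges in the Msx peaks was not tested. Olfactory bulb markers, beside Pax6, had 1 of 6 in replicate 2 and 2 of 6 in replicate 1. Slc17a6 had a peak in both, Cdhr1 in replicate 1 alone, and Doc2g a longer-list peak in replicate 2 alone. Eomes, Tbx21 and Nts were absent from all lists. The shorter lists held 76440 joined peaks in replicate 2 and 63928 in replicate 1, with median heights of 0.689 in replicate 2 and 0.915 in replicate 1, and the files held no read counts, so depth is unknown.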

How the data were processed

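Per the labels, DNase-seq was done on left cerebral cortex of male B6CASTF1/J mice aged 2 months, with 2 libraries in 1 group. The authors deposited, on mm10 per the file headers, 2 peak lists, 1 footprint list and 1 FDR track per replicate. The deposited peak height was used as a signal value, the deposited FDR was used as a p-value type of measure listed only under 0.05, and the footprint lists, whose deposited value column held 1 constant, were used as positions without a score. No source used here gives the scaling of the heights, the aligner or the callers. The files hold no read counts, so depth, intervals and detection limits that need it are not given. Which list is the stricter one is not stated, and the shorter was used.

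Overlapping peaks of a list were joined and given the highest height. Peaks of the replicates that overlapped by 1 bp were merged into 1 shared region. Genes came from GENCODE M21 and bases from GRCm38.p6, and no peak exceeded the length of its reference chromosome (21 of 21). Footprints were called shared on 1 bp of overlap. A promoter footprint had to overlap the 500 bp on both sides of a TSS, which is narrower than a peak that reaches beyond it. The peak counting was tested on simulated data. Python 3.11.15, numpy 2.4.6, pandas 2.3.3, pysam 0.24.0 and matplotlib 3.10.9 were used.

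The members and the gene lists were chosen with earlier results of these data known. All 41 members are accounted for. Open and intermediate members were described singly, closed members where the locus held a shared distal region or the promoter a footprint or low FDR, and other genes as neighbours of a member or among the tallest of a comparison list. A few items are not reported here. Pcgf1, Htra2, Arf5, Gbf1 and Crnde were named as owners of the tallest peaks of a locus. The alternatives tried were other peak lists, windows, overlaps, flanks and FDR limits, and each replicate alone. No result was tested across genes.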

Additional observations from a re-analysis of the deposited data

How the results depend on the processing

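The counts below depend on which peaks are allowed. Against 8 open members, the longer lists gave 14 and the upper 50% of the shorter lists 4, which were Pax6, Six5, Emx1 and Emx2, and 1 replicate alone gave 8 to 14. The share of all genes with an open promoter, 56.2%, was 61.0% with the longer lists (60.99), 50.3% with the upper part, 59.8% with a 2000 bp window and 57.1% to 61.6% with 1 replicate alone. Closed members, 18, became 32 with the upper part and 18 to 27 with 1 replicate alone. Members with a shared distal region, 12, became 21 with the longer lists, 5 with a 5 kb flank, 23 with a 50 kb flank and 18 to 21 with 1 replicate alone, and their 19 regions became 35, 8, 48 and 29 to 32 under the same settings. Members with a shared footprint, 7, became 10 to 19 with 1 replicate alone. Members with low-FDR bases in both replicates, 8, became 15 at an FDR under 0.05 (36.6%, against 61.9% of all genes) and 8 to 14 with 1 replicate alone. For the other changed counts of closed promoters, distal regions, footprints and low-FDR bases, the share of all genes under the same setting is not given. Those counts thus have no background beside them. The median CpG ratio of open minus closed members, 0.0218, reversed to -0.0299 with replicate 2 alone and was 0.0701 with replicate 1 alone. The cause of these changes was not tested. Windows of 200 bp and 2000 bp, 50% overlap, coding transcripts alone and the 5′ end alone kept the open count within 6 to 10. Settings on FDR limits, on the 5′ end alone and on 1 replicate for the CpG and FDR values were chosen after the data were seen. Peak-list settings give no value for footprints, and 50% overlap gives none for closed members. No paired analysis was possible because both samples belong to 1 group. Depth is unknown, so what it limits could not be measured.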
